A study of Mus musculus with 6 samples.

Results

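The genes described here are those of enteroendocrine cells, the scattered hormone-secreting cells of the gut epithelium. The list of 32 genes was chosen with earlier results of these data known. It held 9 hormone genes, 2 enzymes of serotonin and amine synthesis, 10 granule and secretion proteins and 11 transcription factors. Of these, 30 were measured, among 19938 genes in all, each by 1 row of the array that carries that gene symbol and no other. Pcsk2, a prohormone convertase, and Lmx1a, a transcription factor, were not analysed here. RNA came from the whole small intestine of mouse embryos at E18.5, shortly before birth: 3 samples carried a conditional knockout of E-cadherin (cKO) and 3 were controls labelled wildtype. E-cadherin, encoded by Cdh1, holds epithelial cells together at adherens junctions. The driver of recombination, the deleted exons, the control alleles, and whether a sample is 1 embryo or a pool are not stated in the labels.

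Enteroendocrine cells arise from the dividing progenitors of the epithelium when Neurog3 is switched on, and a cascade of further transcription factors then directs them to make particular hormones. The hormones are cut from larger precursors, packed into dense-core granules with chromogranins and secretogranins, and released at the base of the cell. Cells making different hormones are spread unevenly along the gut, with Gip, Cck and Sct more proximal and Gcg, Pyy and Nts more distal. Many granule genes are also active in enteric neurons, so in whole tissue they do not belong to enteroendocrine cells alone.

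All values are log2 expression values as deposited, and differences are cKO minus control on that scale with limma's moderated standard error (SE). A gene was called when its Benjamini-Hochberg adjusted p over all 19938 genes was under 0.05. In whole tissue, fewer cells of a type and less RNA per cell cannot be told apart. On each array the level below which 95% of 1246 olfactory, vomeronasal, taste and trace amine receptor genes lay was used as a measure of background. It was 5.77 to 6.26 on the cKO arrays and 6.22 to 6.39 on the control arrays, lowest on cKO 2. Cdh1 itself read 9.0 ± 0.66 in cKO and 9.94 ± 0.18 in control samples (SD, n = 3 each), apart in all samples but not called (difference -0.95, SE 0.31, limma adjusted p = 0.088). It read 9.70 on cKO 1, 0.12 under the lowest control value, against 8.38 on cKO 2 and 8.91 on cKO 3. Without cKO 1 its difference was -1.30 and it was called (limma adjusted p = 0.012). Exocrine pancreas genes stood out on cKO 3, where the 26 measured members summed to 32820 on a linear scale, against 2824 and 3154 on the other cKO arrays and 2990 to 4129 on control arrays. Results are therefore also given without cKO 3 where that array decides a call.

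Of the 30 members, 3 were called lower in cKO intestine and 1 higher. The 3 that fell were Ghrl and Gip, which encode the peptide hormones ghrelin and GIP, and Ddc, the enzyme that makes serotonin from its precursor. The 1 that rose was Cpe, the carboxypeptidase that trims peptide hormones inside granules. Over all genes tested, 7.36% were called lower and 6.81% higher, so the members' shares lay near the background. Without cKO 3 only Ghrl and Cpe were called, when 4.31% of all genes were called lower and 3.30% higher. The count called lower was also 1 without control 2, control 3 or cKO 1, and 5 without cKO 2. In those fits, in that order, 717, 838, 1438 and 1290 of all 19938 genes were called lower, against 1467 with all arrays. With limma's array weights, which gave cKO 3 the most weight and cKO 2 the least, the members' count was 9, and 2913 of all genes were called lower. Chga, Chgb, Neurog3, Nkx2-2, Gcg and Nts were then called as well, of which Nkx2-2 was at background on all 6 arrays. The direction was more uneven than the calls: 24 members had a difference below 0, 5 above 0 and 1 at 0, with a median of -0.26, beside a median of -0.09 over all genes, of which 61.1% had a difference below 0. Without cKO 2 the members' median was -0.15 and that of all genes 0.007. For 8 members the highest of the 3 cKO values was under the lowest of the 3 control values, against 19.3% of all genes, and the reverse held for 2, against 16.0% (10 of the 30 members apart either way, against 35.4% of all genes). An unadjusted p under 0.05 was reached by 8 members with a lower and 2 with a higher value in cKO, against 15.5% and 13.2% of all genes (28.7% together).

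**Figure D1:**
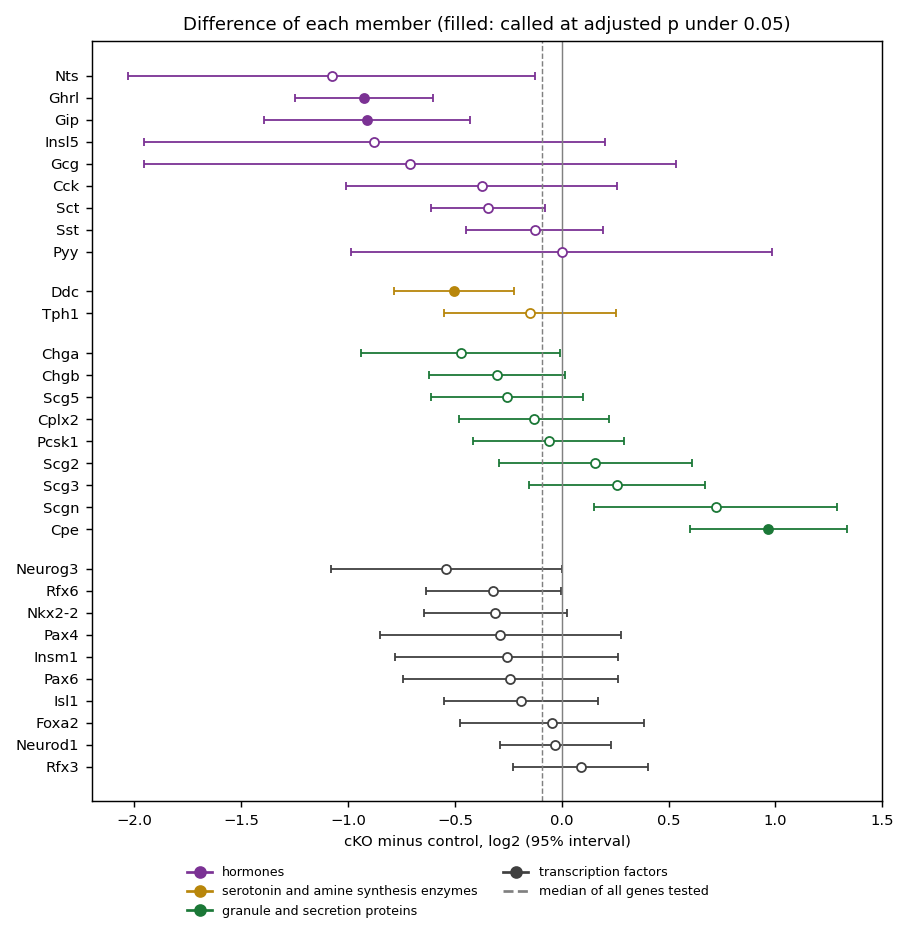
Difference of each of the 30 members, cKO minus control, on the log2 scale (x axis) with its 95% interval, grouped by role and sorted by size within a role. Filled points passed the threshold (Ghrl, Gip and Ddc lower, Cpe higher), open points did not, and the dashed line marks the median of all genes tested at -0.09.

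The hormone genes had the lowest median of the roles, -0.71 over 9 genes, with 8 differences below 0 and Pyy at 0. Of the 9, 2 were called lower and 0 higher. Relative to the control mean, the median hormone gene shifted by -0.73 on cKO 1, -0.28 on cKO 2 and -0.74 on cKO 3. The median of all genes tested shifted by 0.01, -0.23 and 0.0017 on these arrays. On cKO 2 the hormone shift was thus least and near that of all genes. The median difference of the hormones was -0.42 without cKO 3, -0.46 without control 1 and -0.36 without control 3. Over all genes it was -0.12, -0.10 and -0.07 in the same fits.

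Ghrl, whose product ghrelin stimulates appetite and is made in stomach and proximal gut, read 7.19, 7.51 and 7.58 in cKO 1, 2 and 3, against 8.45, 8.28 and 8.32 in control 1, 2 and 3. The groups were 0.70 apart, more than the range within either of them. The difference was -0.92 (SE 0.14, limma adjusted p = 0.0058), or 1.90-fold lower in cKO. Ghrl was called in each of the 6 fits that left out 1 array, with adjusted p of 0.0096 to 0.029.

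Gip encodes the incretin released by K cells of the upper intestine, and it read 7.67, 8.15 and 7.76 in cKO 1, 2 and 3, against 8.46, 8.72 and 9.13 in control 1, 2 and 3. The groups did not overlap, with a gap of 0.31 that is smaller than the range within either group. The difference was -0.91 (SE 0.21, limma adjusted p = 0.027), or 1.88-fold lower in cKO. This call was less secure than that of Ghrl: it was lost without control 2 (adjusted p = 0.088), control 3 (0.081), cKO 1 (0.066) or cKO 3 (0.087).

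Sct, the gene of secretin, which makes the pancreas release bicarbonate, read 9.47, 9.45 and 9.68 in cKO 1, 2 and 3, against 9.87, 9.85 and 9.91 in control 1, 2 and 3. The groups did not overlap: the highest cKO value was 0.17 under the lowest control value. The difference of -0.34 (SE 0.11) was not called (limma adjusted p = 0.092).

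Cck, the gene of cholecystokinin, the signal for bile and pancreatic enzyme release, read 8.64, 9.78 and 9.17 in cKO 1, 2 and 3, against 9.40, 9.72 and 9.59 in control 1, 2 and 3. cKO 2 lay above every control and cKO 1 and 3 below every control. The difference of -0.37 (95% interval -1.01 to 0.26) was not called (limma adjusted p = 0.41).

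Sst encodes somatostatin, which inhibits the release of other hormones and is made by D cells of gut, stomach and pancreatic islets. It read 8.31, 8.13 and 8.42 in cKO 1, 2 and 3, against 8.46, 8.23 and 8.55 in control 1, 2 and 3. The groups overlapped, and the difference of -0.13 had a 95% interval of -0.45 to 0.19. The value on cKO 3, the array with high exocrine pancreas genes, lay within the control range.

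Gcg, Pyy and Nts, the genes of 3 distal hormones, differed more among arrays of 1 group than between the groups. Gcg, the precursor gene of GLP-1 and glucagon, read 7.73, 8.80 and 6.71 in cKO 1, 2 and 3, against 9.04, 8.56 and 7.77 in control 1, 2 and 3. Pyy, the gene of the satiety peptide YY that L cells release with GLP-1, read 8.06, 9.27 and 7.91 in cKO 1, 2 and 3, against 9.06, 8.32 and 7.86 in control 1, 2 and 3. Nts, the gene of neurotensin, a peptide of distal N cells that eases fat uptake, read 7.28, 8.08 and 6.42 in cKO 1, 2 and 3, against 8.75, 8.34 and 7.92 in control 1, 2 and 3. For all 3 genes the highest cKO array was cKO 2 and the lowest cKO 3, while the highest control array was control 1 and the lowest control 3. The differences were -0.71 for Gcg (95% interval -1.95 to 0.53), 0 for Pyy (95% interval -0.98 to 0.98) and -1.08 for Nts (95% interval -2.03 to -0.12), and limma called none of them (adjusted p = 0.42, 1 and 0.13). Leaving out cKO 3 moved Gcg to -0.19, Nts to -0.66 and Pyy to 0.25. Leaving out cKO 2 moved Nts to -1.49, and it was then called (adjusted p = 0.029).

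Markers of gut position were set beside these values. The 15 measured genes of the distal list summed to 4397, 4926 and 2866 on a linear scale in cKO 1, 2 and 3, against 5602, 4377 and 4249 in control 1, 2 and 3. The order of these sums within each group was that of Gcg, Pyy and Nts. A sum on a linear scale is carried by the brightest genes, and the median gene of the list gave another order in cKO samples: relative to the control mean it shifted by -0.11 on cKO 1, -0.43 on cKO 2 and -0.27 on cKO 3. Of the 15 genes, 1 was called higher and 2 lower, with a median of -0.25 (3 higher and 1 lower without cKO 3). Fabp6, the ileal bile acid binding protein of that list, named after its values were seen, read 8.06, 9.07 and 4.35 in cKO 1, 2 and 3, against 5.33, 4.59 and 5.61 in control 1, 2 and 3. It was above background on cKO 1 and 2 only, so its values do not rank the control arrays. The 12 measured genes of the proximal list, of which 4 were called lower, summed to 12940 to 15880 in cKO and to 23100 to 31520 in control samples. That list holds enterocyte genes such as Lct, the lactase gene, which differed by -3.16 (SE 0.44, limma adjusted p = 0.0044). The part of position along the gut in the hormone values was not tested.

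Insl5, the gene of a relaxin-family peptide made by L cells of the colon, read 5.51, 4.78 and 5.35 in cKO 1, 2 and 3, against 5.41, 5.64 and 7.22 in control 1, 2 and 3. All cKO values and 2 of the control values were at or below background, so the gene was above it on control 3 alone and its difference of -0.88 is not exact (limma adjusted p = 0.26).

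**Figure D2:**
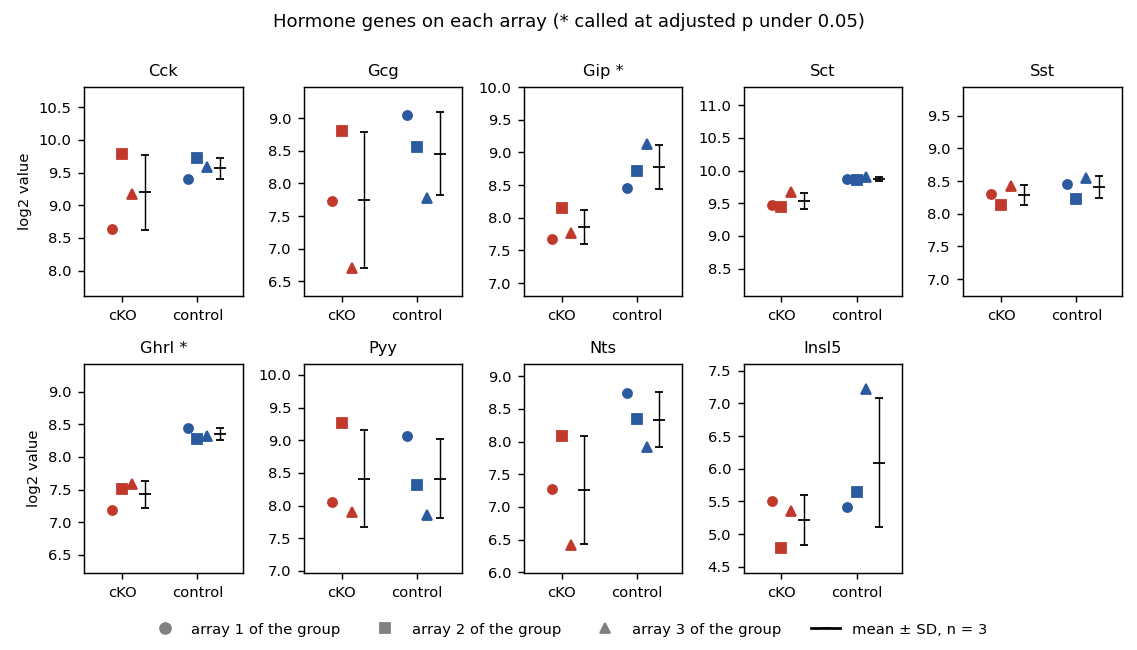
Log2 values (y axis, the same span in every panel) of the 9 hormone genes on each array, cKO in red and control in blue, with the mean and SD of 3 arrays beside them. Ghrl and Gip, marked with an asterisk, were called, and Gcg, Pyy and Nts show their highest cKO value on cKO 2 and their highest control value on control 1.

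Serotonin is made in enterochromaffin cells by tryptophan hydroxylase, encoded by Tph1 in the gut, and then by aromatic amino acid decarboxylase, encoded by Ddc. Ddc read 7.24, 7.36 and 7.06 in cKO 1, 2 and 3, against 7.73, 7.76 and 7.68 in control 1, 2 and 3. All cKO values were below the controls, by at least 0.32, and the difference was -0.50 (SE 0.12, limma adjusted p = 0.031), or 1.42-fold lower. The call of Ddc was lost when any array other than cKO 2 was left out (adjusted p = 0.059 to 0.13, and 0.11 without cKO 3). Ddc is also expressed in enterocytes. Tph1, the enzyme specific to serotonin, read 6.21, 6.13 and 6.11 in cKO 1, 2 and 3, against 6.07, 6.15 and 6.67 in control 1, 2 and 3. The groups overlapped near background, and the difference of -0.15 (95% interval -0.55 to 0.26) was not called (limma adjusted p = 0.61).

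Beyond synthesis, 5 of 11 other genes of serotonin transport, cofactor supply and breakdown were called lower and 0 higher, with a median of -0.76 (-0.79 without cKO 3). Over all genes tested, 7.36% were called lower and the median was -0.09. The part of enterocytes and other cells in the values of these 11 genes was not tested. Slc18a1, the vesicular monoamine transporter VMAT1 that loads serotonin into granules, read 7.08, 7.15 and 6.98 in cKO 1, 2 and 3, against 8.92, 8.99 and 9.25 in control 1, 2 and 3. These groups were far apart, with a difference of -1.98 (SE 0.13, limma adjusted p = 0.00058), about 3.95-fold lower in cKO, larger in size than that of any of the 30 members. Maob, a monoamine oxidase that breaks down amines, read 9.82, 9.89 and 9.11 in cKO 1, 2 and 3, against 11.41, 11.54 and 11.69 in control 1, 2 and 3, a difference of -1.94 (SE 0.22, limma adjusted p = 0.0021). Qdpr and Pts, which supply the tetrahydrobiopterin cofactor of tryptophan hydroxylase and other enzymes, fell by 1.44 (SE 0.11, limma adjusted p = 0.00078) and 0.82 (SE 0.13, limma adjusted p = 0.0067). Slc6a4, the transporter that takes serotonin back into epithelial cells and neurons, fell by 1.10 (SE 0.23, limma adjusted p = 0.021) and was not called without cKO 3 (0.074) or without any 1 control (highest 0.084). Maoa, the other monoamine oxidase, differed by 0.15 (limma adjusted p = 0.69) and Gch1, the first enzyme of cofactor synthesis, by 0.52 (limma adjusted p = 0.11). Slc18a2, the second vesicular transporter, read 7.06, 5.51 and 7.48 in cKO 1, 2 and 3, against 7.50, 7.38 and 7.45 in control 1, 2 and 3, so its difference of -0.76 (limma adjusted p = 0.32) came mainly from cKO 2.

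**Figure D3:**
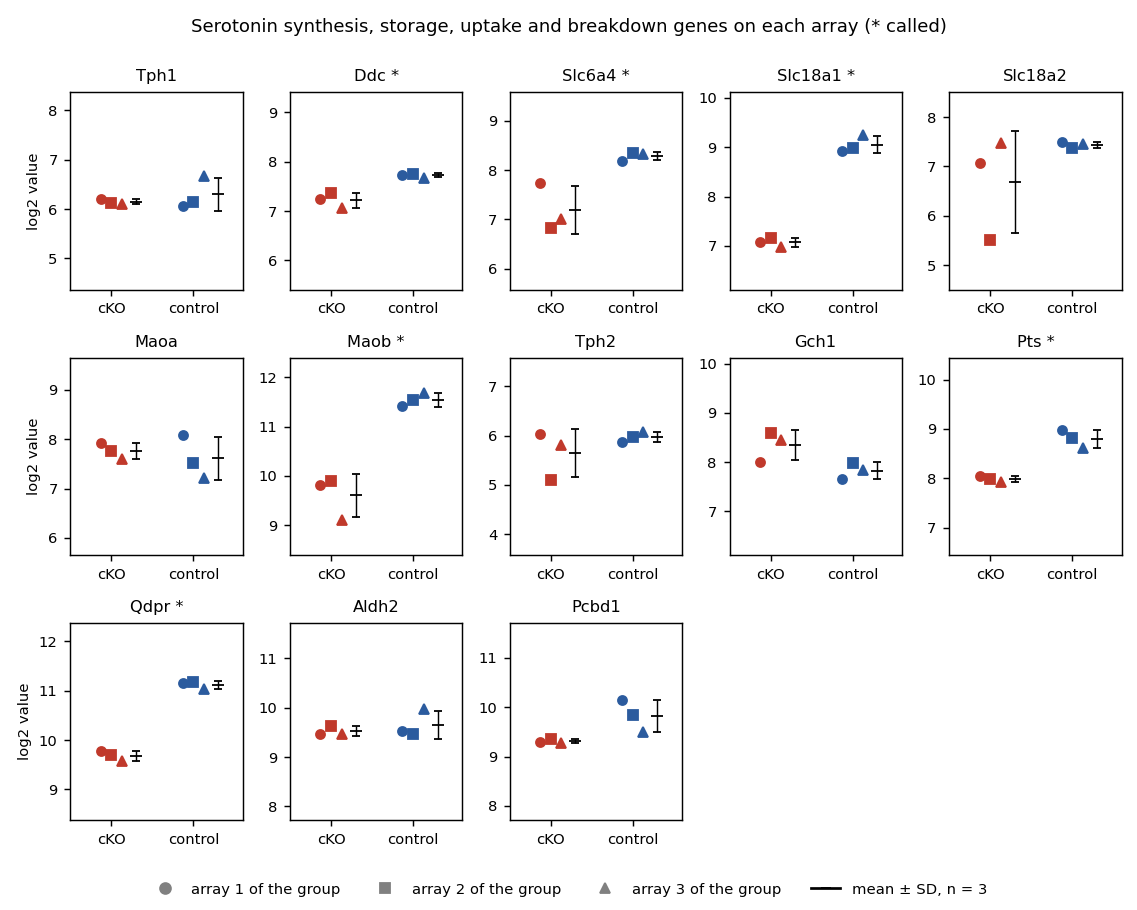
Log2 values (y axis, the same span in every panel) of Tph1, Ddc and the 11 measured genes of serotonin transport and breakdown on each array, cKO in red and control in blue, with the mean and SD of 3 arrays beside them. The groups of Slc18a1, Maob and Qdpr lie farthest apart, and those of Tph1 overlap.

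Promoter windows of the members called lower are shown for their sequence context. They hold 250 bases before to 50 bases after an annotated transcript start in the RefSeq table (GRCm38.p6), which lists 1 window for Gip, 4 for Ghrl and 2 for Ddc. The window listed first is given, 5′ to 3′ on the gene's strand: Gip at chr11:96024295-96024594 (plus strand), Ghrl at chr6:113717643-113717942 (minus strand) and Ddc at chr11:11898095-11898394 (minus strand). Capitals mark matches, on either strand, of short motifs. CATCTG is an E-box of the kind bound by Neurog3 and Neurod1. TATAAA is the core of a TATA box. The core GATAAG belongs to GATA factors and GTTGCC to RFX factors. The core TGTTTA belongs to FOXA factors and TTTATG to CDX factors.
Gip: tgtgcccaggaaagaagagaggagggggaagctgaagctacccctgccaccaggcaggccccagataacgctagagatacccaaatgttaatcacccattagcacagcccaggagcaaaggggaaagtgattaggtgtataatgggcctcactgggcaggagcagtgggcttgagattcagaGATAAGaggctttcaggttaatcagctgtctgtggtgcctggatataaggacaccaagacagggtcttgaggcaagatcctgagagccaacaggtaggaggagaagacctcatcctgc
Ghrl: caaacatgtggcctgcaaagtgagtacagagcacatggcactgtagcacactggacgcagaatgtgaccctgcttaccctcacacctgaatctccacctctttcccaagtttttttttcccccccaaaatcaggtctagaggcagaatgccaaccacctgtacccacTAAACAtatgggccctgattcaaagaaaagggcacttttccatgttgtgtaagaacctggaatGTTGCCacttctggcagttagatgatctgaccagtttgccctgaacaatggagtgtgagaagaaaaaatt
Ddc: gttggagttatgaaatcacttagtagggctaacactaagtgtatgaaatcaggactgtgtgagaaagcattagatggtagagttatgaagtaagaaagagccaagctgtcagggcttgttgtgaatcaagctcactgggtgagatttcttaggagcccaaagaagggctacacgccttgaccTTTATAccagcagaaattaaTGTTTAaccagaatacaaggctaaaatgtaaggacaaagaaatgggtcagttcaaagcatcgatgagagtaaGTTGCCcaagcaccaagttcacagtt

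The Gip window held 1 match, GATAAG, which 7.44% of all 32851 windows in the table contain. The Ghrl and Ddc windows both held GTTGCC (12.5% of all windows) and TGTTTA (13.4%). The Ddc window also held TATAAA (13.6%), but on the opposite strand, at -68 from the start. CATCTG, present in 17.2% of all windows, was in none of the windows printed but in 2 other annotated Ghrl windows. Those 2 windows overlap and share a match. Over the 37 windows of the 27 members listed in the table, CATCTG was found in 7, TATAAA in 7, GATAAG in 5, GTTGCC in 7, TGTTTA in 7 and TTTATG in 3. Overlapping windows of a gene were counted separately. These matches describe letters and are not evidence of binding.

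The granule and secretion genes did not move as 1 group. Of 9 measured, 1 was called higher and 0 lower, 5 had a difference below 0 and 4 above, and the median was -0.06. That median changed sign with the arrays used: it was 0.028 without control 3, 0.003 without control 1 and 0.10 with array weights, against -0.15 without control 2.

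Chga and Chgb encode chromogranins A and B, the core proteins of dense-core granules and general markers of endocrine cells. Chga read 7.56, 8.13 and 7.61 in cKO 1, 2 and 3, against 8.21, 8.00 and 8.51 in control 1, 2 and 3. cKO 2 lay within the control range and cKO 1 and 3 below it, and the difference of -0.47 (95% interval -0.94 to -0.0066) was not called (limma adjusted p = 0.17). Without cKO 2, Chga differed by -0.66 and was called (adjusted p = 0.048). Chgb read 8.01, 7.91 and 7.60 in cKO 1, 2 and 3, against 8.15, 8.10 and 8.18 in control 1, 2 and 3. All cKO values were lower, but by as little as 0.09, and the difference of -0.30 (SE 0.14) was not called (limma adjusted p = 0.19).

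Cpe rose in cKO samples. It read 10.42, 10.02 and 10.32 in cKO 1, 2 and 3, against 9.50, 9.24 and 9.12 in control 1, 2 and 3. The groups were 0.52 apart, more than the range within either of them, and the difference was 0.97 (SE 0.16, limma adjusted p = 0.0075), or 1.95-fold higher. It was called in each of the 6 fits that left out 1 array (adjusted p = 0.0064 to 0.042). Scgn, the gene of secretagogin, a calcium sensor of endocrine cells, was the other member with all cKO values above the controls: 6.76, 7.40 and 6.71 in cKO 1, 2 and 3, against 6.60, 6.22 and 5.89 in control 1, 2 and 3. Its difference of 0.72 (SE 0.24) was not called (limma adjusted p = 0.098), and 2 of its 3 control values were at or below background.

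The secretogranin genes Scg2, Scg3 and Scg5 are expressed in neurons as well. Scg2 read 7.26, 7.62 and 7.32 in cKO 1, 2 and 3, against 7.63, 7.01 and 7.09 in control 1, 2 and 3, with a difference of 0.16 (95% interval -0.29 to 0.61). Scg3 differed by 0.26 (95% interval -0.15 to 0.67), with 2 of its 3 control values at or below background. Scg5, a chaperone of the convertase that Pcsk2 encodes, differed by -0.26 (95% interval -0.61 to 0.10). In all 3 the groups overlapped. Pcsk1, the prohormone convertase that cuts proglucagon to GLP-1, read 6.36, 6.37 and 6.45 in cKO 1, 2 and 3, against 6.58, 6.15 and 6.63 in control 1, 2 and 3. The cKO values lay inside the control range, and the difference was -0.06 (95% interval -0.41 to 0.29). The value of Pcsk1 on control 2 was at or below background. Cplx2, a complexin that gates vesicle fusion, differed by -0.13 (95% interval -0.48 to 0.22), also with overlap.

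Enteric neuron markers were set beside these genes. Of 21 measured, 3 were called higher in cKO samples and 0 lower (1 and 0 without cKO 3), 17 had a difference above 0 and 3 below, and the median was 0.31. Relative to the control mean, the median marker shifted by 0.29, 0.49 and 0.20 on cKO 1, 2 and 3, against 0.17 on control 1, -0.083 on control 2 and -0.067 on control 3. They summed to 4278 to 4787 on a linear scale in cKO and to 3312 to 4085 in control samples, and none was at 0. Uchl1, the neuronal ubiquitin hydrolase gene, rose by 0.65 (SE 0.15, limma adjusted p = 0.029), Snap25, a vesicle fusion protein gene, by 0.43 (limma adjusted p = 0.040) and Vip, the gene of a neuropeptide, by 1.35 (SE 0.21, limma adjusted p = 0.0065). For Vip 2 of the 3 control values were at or below background, so the size of its difference is not exact. Vip was called in each fit that left out 1 array, Uchl1 in the fit without control 1 alone (highest adjusted p = 0.12) and Snap25 in none (highest 0.17). Of 6 measured glia markers 0 were called (limma; 0 higher and 1 lower at an unadjusted p under 0.05), with a median of -0.043. The part of neurons in the values of Cpe, Scgn, Scg2 and Scg3 was not tested.

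**Figure D4:**
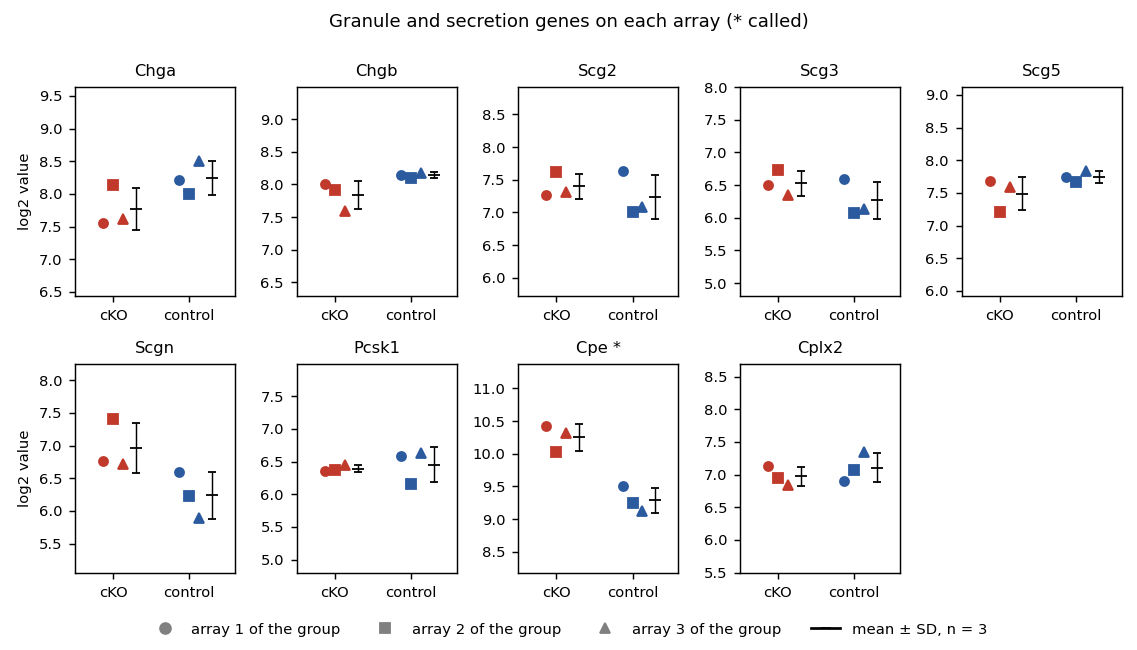
Log2 values (y axis, the same span in every panel) of the 9 measured granule and secretion genes on each array, cKO in red and control in blue, with the mean and SD of 3 arrays beside them. Cpe, marked with an asterisk, lies higher in all cKO samples, Chgb lower in all cKO samples by a small margin, and Pcsk1 within the control range.

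None of the 10 measured transcription factor genes was called (0 by limma, 2 lower at an unadjusted p under 0.05), with 9 differences below 0 and a median of -0.25. Only Pax6, Insm1 and Foxa2 were above background on all 6 arrays. Neurod1, Pax4, Isl1, Nkx2-2 and Rfx6 were at or below it on all 6, so the arrays give no usable level for them. The strictly lowest of the 6 values was on cKO 2 for 8 of the 10 genes and for 43.1% of all genes tested. Relative to the control mean, the median factor shifted by -0.53 on cKO 2, against -0.0067 on cKO 1 and -0.065 on cKO 3. On cKO 2 the receptor genes used for background shifted by -0.38 (median) and all genes tested by -0.23. Without cKO 2 the median of the factors was -0.022 and that of all genes 0.007.

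Neurog3, the switch that commits progenitors to the endocrine lineage, read 6.48, 5.55 and 6.23 in cKO 1, 2 and 3, against 6.70, 6.65 and 6.53 in control 1, 2 and 3. All cKO values were below all controls, but cKO 1 by only 0.05, and the value on cKO 2 was at background. The difference of -0.54 (SE 0.23) was not called (limma adjusted p = 0.17). Without cKO 2 it was -0.27.

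Insm1, a zinc finger repressor that acts below Neurog3, read 7.54, 6.84 and 7.60 in cKO 1, 2 and 3, against 7.41, 7.53 and 7.81 in control 1, 2 and 3. The arrays cKO 1 and 3 lay inside the control range, and the difference was -0.26 (95% interval -0.78 to 0.27). Pax6, a homeobox gene needed for several hormone cell types, showed the same pattern, with 7.04, 6.25 and 6.93 in cKO 1, 2 and 3, against 6.85, 7.12 and 6.97 in control 1, 2 and 3, and a difference of -0.24 (95% interval -0.74 to 0.26). Foxa2, a forkhead factor of endoderm, read 6.93, 6.25 and 6.79 in cKO 1, 2 and 3, against 6.77, 6.66 and 6.68 in control 1, 2 and 3, with cKO 1 and 3 above every control. Its difference was -0.047 (95% interval -0.48 to 0.38), and without cKO 2 it was 0.16.

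Rfx3, a factor of cilia and endocrine genes that is active in many cell types, differed by 0.09 (95% interval -0.23 to 0.41). Rfx6, which acts below Neurog3 in endocrine cells, read 5.05, 4.65 and 4.94 in cKO 1, 2 and 3, against 5.21, 5.13 and 5.26 in control 1, 2 and 3. Nkx2-2, a homeobox gene of several hormone lineages, read 5.81, 5.35 and 5.48 in cKO 1, 2 and 3, against 5.82, 5.91 and 5.84 in control 1, 2 and 3. In both the cKO values lay below the controls, but by 0.08 and 0.01, and at background. Neurod1, Pax4 and Isl1, which act in early and hormone-specific steps, differed by -0.03, -0.29 and -0.19 with overlapping groups.

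**Figure D5:**
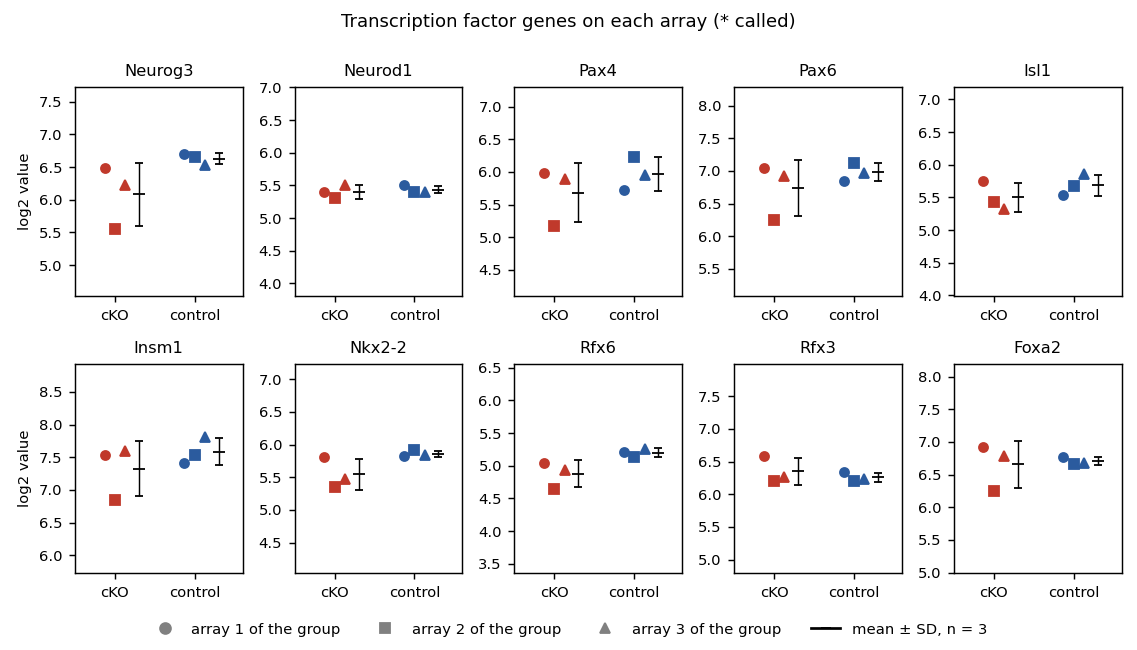
Log2 values (y axis, the same span in every panel) of the 10 measured transcription factor genes on each array, cKO in red and control in blue, with the mean and SD of 3 arrays beside them. None was called, and for Neurog3, Pax4, Pax6, Insm1 and Foxa2 the square of cKO 2 stands below the other arrays.

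Further genes of the endocrine programme came from 5 more lists. Their counts stand beside the shares of all genes called, 6.81% higher and 7.36% lower. Of 17 other gut peptide genes, 5 were called higher and 1 lower, with a median of 0.0067. Penk, the gene of the enkephalin precursor, rose by 1.56 (SE 0.34, limma adjusted p = 0.023), Gal, the galanin gene, by 1.05 (SE 0.16, limma adjusted p = 0.0058, at least 1.49-fold over controls at background), Vip as above, and Grp, the gene of gastrin-releasing peptide, by 0.61 (SE 0.13, limma adjusted p = 0.020). Enteric neurons express all 4 of these peptide genes. The other 1 called higher was Nucb2, the gene of nucleobindin 2, the precursor of nesfatin-1, which rose by 1.26 (SE 0.30, limma adjusted p = 0.031, with 1 control value at background) and lost its call without control 2, control 3, cKO 2 or cKO 3 (highest 0.11). Vip and Gal were called in each fit that left out 1 array. The call of Penk was lost without control 2 or any 1 cKO array (highest adjusted p = 0.075), and that of Grp without any 1 control or cKO 3 (highest 0.092). The 1 called lower, Calcb, the gene of a calcitonin-related peptide, read 5.94, 5.29 and 6.34 in cKO 1, 2 and 3, against 6.84, 6.87 and 7.46 in control 1, 2 and 3 (difference -1.20, SE 0.29, limma adjusted p = 0.033). On cKO 1 and 2 it was at or below background, so the size of the difference is not exact. Its call was lost without any 1 control or without cKO 1 (highest adjusted p = 0.12).

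Of 17 other endocrine regulators, 1 was called higher and 1 lower, with a median of -0.087. Sox4, a factor active in progenitors of many tissues, rose by 0.58 (SE 0.12, limma adjusted p = 0.020) and Onecut3 fell by 0.49 (SE 0.11, limma adjusted p = 0.024). Sox4 lost its call without cKO 3, control 2 or control 3 (highest adjusted p = 0.097), and Onecut3 lost its call without any 1 array other than cKO 2 (highest 0.12). Of 27 other granule, vesicle and exocytosis genes, 4 were called higher and 1, Slc18a1, lower, with a median of 0.057. Those that rose included Rab27a and Rab27b, small GTPases of secretory vesicles, at 0.70 (SE 0.11, limma adjusted p = 0.0063) and 0.54 (SE 0.13, limma adjusted p = 0.031), and Syp, the synaptophysin gene, at 0.52 (SE 0.12, limma adjusted p = 0.033). Syp and Snap25 are also genes of neuronal vesicles. Rab27a and Slc18a1 were called in each fit that left out 1 array, whereas Rab27b was not called without any 1 array other than cKO 1 (highest adjusted p = 0.11) and Syp not without any 1 other than cKO 2 (highest 0.14).

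Of 24 nutrient sensor and channel genes, 3 were called higher and 2 lower, with a median of -0.087. Slc5a1, the glucose transporter SGLT1 through which K and L cells sense sugar and enterocytes absorb it, read 9.94, 9.65 and 9.17 in cKO 1, 2 and 3, against 10.59, 10.82 and 11.29 in control 1, 2 and 3 (difference -1.31, SE 0.25, limma adjusted p = 0.013). Its adjusted p was 0.0502 without control 2. Ffar2, a receptor for short-chain fatty acids, fell by 0.49 (SE 0.13, limma adjusted p = 0.042), with 2 of 3 cKO values at or below background, and was not called without any 1 array other than cKO 2 (highest adjusted p = 0.13). Trpa1, a cation channel of enterochromaffin cells and sensory nerves, differed by 0.78 (SE 0.12, limma adjusted p = 0.0058), but all controls and 2 of the cKO values were at background. Cacna1c, a calcium channel also of smooth muscle, rose by 0.71 (SE 0.13, limma adjusted p = 0.014), at least 1.44-fold over controls at background, and was not called without control 2 or 3 (highest adjusted p = 0.074). Piezo2, a mechanically gated channel of enterochromaffin cells and sensory neurons, rose by 0.49 (SE 0.13, limma adjusted p = 0.045) and lost its call without any 1 array other than cKO 2 (highest 0.15). Of 27 receptor genes for the gut hormones and serotonin, 0 were called by limma (1 higher and 0 lower at an unadjusted p under 0.05), with a median of -0.05.

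Markers of other cell types were set beside the members. Of 17 measured general epithelium genes, 4 were called higher and 4 lower, with a median of -0.15 (3 higher and 2 lower without cKO 3), and their sum was 36960 to 38120 in cKO and 32430 to 37650 in control samples. Epcam, an adhesion molecule of all epithelium, differed by -0.10 (limma adjusted p = 0.59). The 14 measured pancreatic islet genes had a median of -0.17, with 0 called higher and 1, the glucose transporter gene Slc2a2, lower. Among them Ins2 read 6.58, 6.22 and 7.39 in cKO 1, 2 and 3, against 6.52, 6.40 and 6.41 in control 1, 2 and 3, and Iapp read 5.97, 7.13 and 7.75 in cKO 1, 2 and 3, against 6.52, 6.12 and 6.37 in control 1, 2 and 3, so both were highest on cKO 3 (named after their values were seen). Pdx1, also on the list, read 6.26, 6.33 and 6.83 in cKO 1, 2 and 3, against 5.97, 6.15 and 6.44 in control 1, 2 and 3. It was highest on cKO 3 too, but 1 cKO and 2 control values were at or below background. Ppy, Npy, Nkx6-1 and Ucn3 were not highest on cKO 3. The median gene of the islet list shifted by -0.11 on cKO 3 relative to the control mean. On a linear scale the 14 genes summed to 2785, 2489 and 2305 in cKO 1, 2 and 3. The sums in control 1, 2 and 3 were 4397, 4226 and 3523. Such sums are carried by the brightest genes, and the lowest difference of a gene in the list was -2.54. On cKO 3 Gcg was at its lowest and Sst within the control range. The part of islet tissue in these values was not tested. Of 16 stomach genes 1, Anxa10, was called higher, and Gast, the gastrin gene, differed by -0.14 (limma adjusted p = 0.48). Of 13 mast cell genes, set beside Tph1, 0 were called (limma; 2 higher and 1 lower at an unadjusted p under 0.05), with a median of -0.083. Of 11 tuft cell genes 1 was called higher, Alox5ap, with a median of -0.12.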

How the data were processed

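RNA of 6 samples was hybridised to Affymetrix mouse gene arrays and analysed by the authors with dChip, per the series design text. Version, background correction and normalization were not found in those sources. The deposited values, 1 for each of 35512 probe sets on each array, were made by the authors and read here as log2 from their range, since the labels name no scale. Array medians were 6.17 to 6.50, with cKO 2 lowest. Of the probe sets, 21789 had 1 gene symbol, 1621 several and 12102 none listed. Symbols were updated by gene ID (21698 matched, GRCm38.p6), and the brightest row of a gene was kept. Groups come from the sample titles. The labels do not say that samples are separate animals, so every p-value speaks of the spread among these 6 samples alone, and that spread may be technical.

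limma 3.58.1 (R 4.3.3; lmFit, eBayes, two-sided, no covariate) was fitted to all 19938 genes and 6 arrays, with Benjamini-Hochberg adjustment and a threshold of 0.05, after a check on simulated data. Precision is limited by the number of arrays. Named were Cdh1, all members, called genes of the 6 other endocrine lists and leading genes of the 10 marker lists. Members and lists were chosen with earlier results of these data known. Alternatives were quantile normalization, median centring, a filter on dim genes, array weights, a variance trend, other row choices, a replicate block and leaving out each array.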

Additional observations from a re-analysis of the deposited data

How the results depend on the processing

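Ghrl and Cpe kept their direction and call in every setting run. The call of Gip was lost when 1 of 4 arrays was left out and that of Ddc when 1 of 5 was, with median centring (adjusted p = 0.072) or with the replicate block (0.066). Array weights called 9 members lower in place of 3, and over all genes 2921 higher and 2913 lower in place of 1358 and 1467. They moved the median of the hormones to -0.50 and that of the granule genes to 0.10, and quantile normalization moved the median of all members to -0.17. The median of all genes tested moved too, from -0.09 to -0.009 with array weights and to -0.009 with quantile normalization. The cause of these shifts was not tested. When 1 array was left out, members called lower numbered 1 to 5, and genes called 509 to 1275 higher and 717 to 1438 lower. The medians then ranged from -0.33 to -0.15 for all members, -0.70 to -0.36 for hormones, -0.15 to 0.028 for granule genes and -0.38 to -0.022 for transcription factors. Over all genes tested the median ranged from -0.13 to 0.007. The deviations of same-numbered arrays correlated at -0.080, 0.13 and 0.14 across genes, and those of different-numbered arrays at -0.24 to 0.15. With 3 arrays per group these values cannot decide whether the replicate numbers pair the arrays. With the replicate block, Nts was called (adjusted p = 0.046) and Ddc was not, so the count called lower stayed at 3. The filter on dim genes left 24 of the 30 members, and each kept its side of the threshold. The trend in the variance called Sct as well (adjusted p = 0.035). Signal over background limits most transcription factors, Insl5, Tph1, Scgn and Scg3, and Pcsk1 on control 2.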
